A study of Homo sapiens with 2 samples.

Results

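Long internal exons were examined among the exons of the skipped-exon events that rMATS listed for HEK293T cells. An exon belonged to this group when it was longer than 300 bases, with each distinct chromosome, strand, start and end counted once. The group held 2140 of 67154 listed exons, or 3.19% (95% Wilson interval 3.06 to 3.32%). They lay in 1813 genes and took part in 3149 of the 113456 skipped-exon events. HEK293T is a line derived from human embryonic kidney. Polyadenylated RNA was sequenced from control cells, which received no treatment, and from cells kept for 6 h in 300 µg/mL of the diuretic amiloride, which blocks epithelial sodium channels. Each condition had 1 library, and the columns carry library numbers in place of conditions, so that reads per library, depth and the direction of any change after amiloride are not reported. The exons are therefore described by position, sequence and annotation. Whether, or how often, a listed exon was skipped was not measured here. Wilson intervals cover counting error only. Exons are not replicates of a condition, and the differences between length classes were not tested.

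Internal exons of vertebrate genes are mostly short, and the splicing machinery is thought to recognise an exon as a unit, with factors at its ends interacting across it. The 5' splice site (5'SS), at the downstream end of the exon, pairs with U1 snRNA. The 3' splice site (3'SS), at the upstream end, consists of a polypyrimidine tract and an AG and is bound by U2AF. Very long exons place these ends far apart and offer many internal sequences that resemble a splice site.

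Several splice sites of the longest and best known of these exons are printed to show the range from poor to close matches to the consensus. All sequences are from GRCh37, 5' to 3' on the sense strand. The 3'SS lines hold 20 bases of intron and 3 of exon, and the capitals mark the AG that ends the intron.
ANK3 3'SS: ttttaaaatttaagaaacAGttg
NIN 3'SS: tgtatgttgactatatttAGgga
SRRM2 3'SS: gctctctcttccactcttAGaaa
SPEN 3'SS: tctttgttattttttggcAGaga
RAI1 3'SS: cttcctttttcttttcacAGata
The 5'SS lines hold 3 bases of exon and 6 of intron, and the capitals mark the GT that opens the intron.
DST 5'SS: gagGTatac
HIVEP1 5'SS: aagGTactt
SPEN 5'SS: cagGTgagc
NUMA1 5'SS: cagGTaagg
TET2 5'SS: tagGTaagt
MDC1 5'SS: aagGTaagt

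Each site was scored in bits by adding, over its bases, the log2 frequency of the base among annotated sites relative to equal use of the 4 bases, so that a higher score is a closer match. Among the printed 3'SS the score went from 1.06 for ANK3 and 4.99 for NIN to 9.61 for SRRM2, 12.02 for SPEN and 16.78 for RAI1. Of the 5'SS, DST scored 4.74 and HIVEP1 6.46, against 10.26 for SPEN, 11.30 for NUMA1, 11.21 for TET2 and 12.55 for MDC1. The A-rich stretch before the AG of ANK3 contrasts with the mostly pyrimidine bases before that of RAI1.

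The median length of the long exons was 501.5 bases (quartiles 367.75 and 800), against 112 bases for the 65014 exons of at most 300 bases. There were 701 exons of over 300 to 400 bases, 367 of over 400 to 500, 705 of over 500 to 1000 and 367 longer than 1000. Length classes are given without their lower bound throughout, so that 300 to 400 bases leaves out 300 itself. Most of the genes, 1550, had 1 long exon, 209 had 2 and 48 had 3. At the boundary, 15 exons were 1 base longer than 300 bases and 11 measured 300. Their median nearest upstream introns were 8407 and 1627 bases, their median 5'SS scores 7.43 and 9.34, and their median 3'SS scores 9.58 and 10.50. Values of so few exons carry little precision.

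The longest listed exon was exon 11 of 15 of SPEN, which encodes a transcriptional corepressor with RNA recognition motifs. It spanned 8176 bases at chr1:16254586-16262761 on the plus strand and was wholly coding. Exon 37 of 44 of ANK3, at chr10:61828395-61836206 on the minus strand, had 7812 bases. ANK3 encodes ankyrin-G, which anchors membrane proteins at the axon initial segment, and this giant exon is known from the neuronal form of the protein. Its 3'SS score stood at the 1.39th percentile of all 67154 exons, whereas its 5'SS score of 8.35 stood at the 56.7th. The annotation also held the junction that skips it. The corresponding giant exon of ANK2, which encodes ankyrin-B, was exon 38 of 46 with 6255 bases at chr4:114274201-114280455. Its skipping junction was annotated too, and both its sites scored below the medians of the shorter exons (5'SS 7.04, 3'SS 6.64).

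The rest of the 10 longest exons, 1 per gene, lay in genes of nuclear proteins. SRRM2, a spliceosome component that organises nuclear speckles, had an exon of 6701 bases (exon 11 of 15, chr16:2811562-2818262), and SON, another speckle protein needed for splicing of weak introns, 1 of 5916 bases (exon 3 of 12, chr21:34921782-34927697). The chromatin regulator ANKRD11 had an exon of 6578 bases, with an upstream intron of only 389 bases. The exon of HIVEP1, a zinc finger transcription factor, measured 5981 bases and lay between introns of 30652 and 35568 bases. RAI1, a nuclear protein whose loss causes Smith-Magenis syndrome, had an exon of 5581 bases at chr17:17696247-17701827 with the start of coding inside it. Its 3'SS was at the 99.1st percentile and its upstream intron spanned 68773 bases. The other two of the 10 longest were exon 2 of 3 of ZNF646, with 5456 bases, and an exon of 5415 bases in ZFHX4, both genes of zinc finger proteins. Of these 10 exons, 8 were wholly coding and 2, in RAI1 and ZNF646, held a start of coding.

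TNRC18 had the most long exons, 7 of its 18 listed exons, from 361 to 1665 bases. PCNT, which encodes the centrosome scaffold pericentrin, followed with 5 of 38 (372 to 879 bases), all wholly coding. Another 4 genes had 4 each. In PTPN13, a protein tyrosine phosphatase, they were separate exons of 365 to 561 bases. In SUPT7L, a subunit of the SAGA coactivator complex, 3 of the 4 shared the end at the 5'SS and differed in the 3'SS, so that they measured 405, 460 and 618 bases. Their 3'SS scores were -0.27, 6.78 and 10.09. ZNF638 had 4 of 17, up to 1845 bases. The last was the readthrough transcript STAG3L5P-PVRIG2P-PILRB, which includes pseudogenes. Of its 4 long exons 3 were non-coding and 1 was wholly coding, and whether reads could be split with similar copies was not tested.

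Long exons were flanked by longer introns than the shorter exons. Intron length was taken as the distance to the nearest flanking exon among an exon's listed events. The median upstream distance was 3484 bases (quartiles 1173 and 10798), against 2167 (700 and 5956) for exons of at most 300 bases. The ratio of these medians was 1.61 (95% interval 1.48 to 1.73, from order statistics of the long exons). On the downstream side the medians were 3033 and 1976 bases, a ratio of 1.53 (1.45 to 1.65). The distance was larger in each longer class, with upstream medians of 2924 bases for exons of 300 to 400 bases, 3019 for 400 to 500, 3781 for 500 to 1000 and 4784 for those over 1000. The quartiles of all classes overlapped widely. NUMA1, a spindle pole protein, had a long exon (3366 bases) only 147 bases from its upstream neighbour, and that of MDC1, a mediator of the DNA damage checkpoint, lay 111 bases from the downstream one. At the other end, the exon of ZNF521 with 3353 bases had 94310 bases upstream and 29100 downstream.

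Both splice sites of long exons scored slightly above those of the shorter exons. The median 5'SS score was 8.34 bits (quartiles 6.67 and 10.10) against 8.06 (6.35 and 9.54), a difference of 0.28 (95% interval 0.17 to 0.50). The median 3'SS score was 9.70 (7.46 and 12.05) against 9.19 (6.94 and 11.38), a difference of 0.51 (0.34 to 0.67). Scores followed length in a U shape. Median 3'SS scores were 10.63 for exons of at most 50 bases, 8.89 for 100 to 200 bases, 9.10 for 300 to 400, 9.81 for 500 to 1000 and 10.55 for those over 1000. For 5'SS the corresponding medians were 8.75, 7.97, 8.11, 8.62 and 8.80. Thus the shortest and the longest exons had the closest matches to the consensus on both sides. Among wholly coding exons alone the 3'SS difference was 0.24, and the 5'SS difference remained 0.28. The 3'SS difference was 0.23 with a threshold of 250 bases, 0.88 with 500 bases and 0.83 with the longest exon of each gene. For the 5'SS these settings gave 0.22, 0.59 and 0.34.

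**Figure D1:**
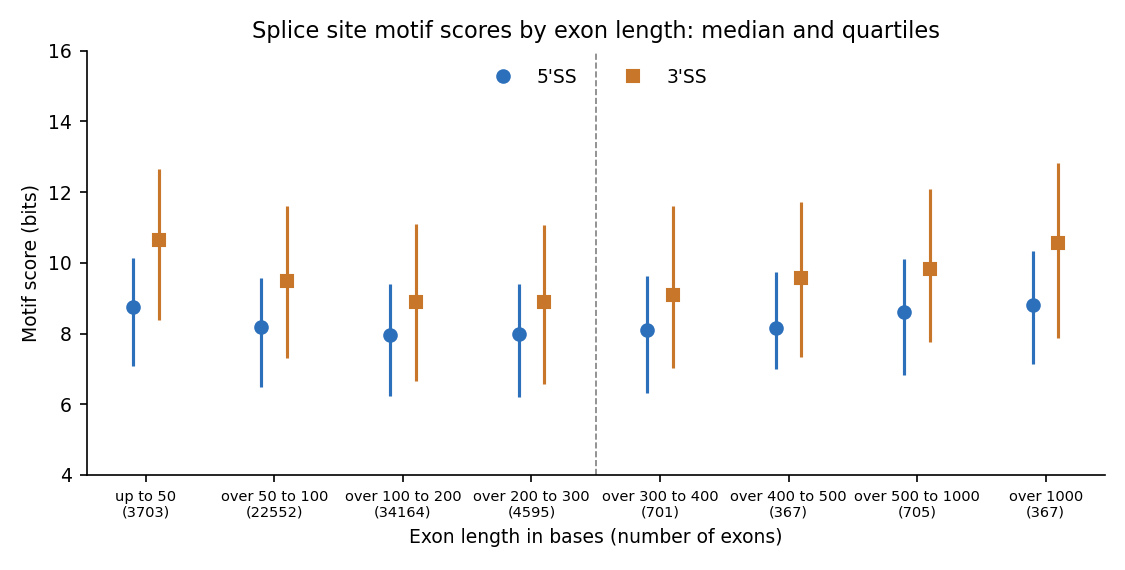
Motif scores in bits of the 5'SS (circles) and 3'SS (squares) by class of exon length in bases, with the number of exons in parentheses. Symbols are medians and lines the quartiles. Medians are lowest for exons of 100 to 300 bases (8.89 and 8.90 for the 3'SS) and higher toward both ends, with widely overlapping quartiles.

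A comparison within genes was added after seeing the data. In 1277 genes with a long exon and at least 3 other listed exons, the long exons had a higher median 3'SS score than the others in 736 genes (57.6%, 54.9 to 60.3%) and a higher 5'SS score in 685 (53.6%, 50.9 to 56.4%). Upstream introns were longer in 755 genes (59.1%) and downstream introns in 804 (63.0%, 60.3 to 65.6%), with median ratios of 1.38 and 1.44. GC content was higher in 876 (68.6%), by a median of 2.37 percentage points. Genes thus differed in direction, and for each site score over 40% of genes had the long exon at or below their other exons.

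The named exons spread over most of this range. The exon of MDC1 (792 bases, chr6:30675343-30676134) was at the 98.9th percentile for the 5'SS and the 96.0th for the 3'SS. That of DST (2730 bases, chr6:56482784-56485513), a cytoskeletal linker, was at the 8.43rd percentile for the 5'SS, and that of NIN (2139 bases, exon 18 of 31), the centrosome protein ninein, at the 10.8th for the 3'SS. In HIVEP1 the 3'SS was at the 87.4th percentile and the 5'SS at the 26.4th. High scores at one end thus came with high scores at the other in MDC1 and not in HIVEP1.

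**Figure D2:**
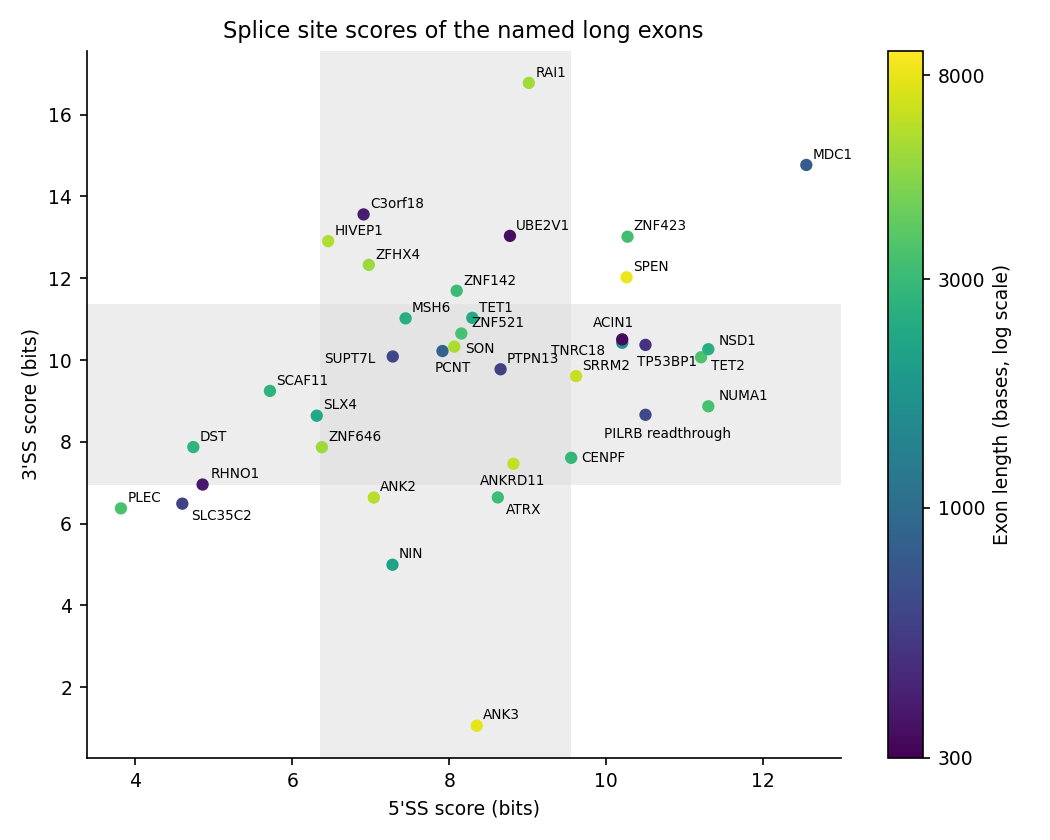
5'SS score (horizontal axis) against 3'SS score (vertical axis), both in bits, of named long exons, 1 point per exon, coloured by length in bases on a log scale. Gray bands are the quartiles of the exons of at most 300 bases. MDC1 (12.55 and 14.77), SPEN (10.26 and 12.02) and ZNF423 (10.27 and 13.02) lie above both bands. SLC35C2 (4.60 and 6.49) and PLEC (3.82 and 6.37) lie below both. ANK3 has the lowest 3'SS score (1.06) of the named exons, 1 per gene, whose sites are reported.

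The coding content of long exons differed from that of shorter ones. Of the 2140, 1430 (66.8%, 64.8 to 68.8%) were wholly coding in at least 1 annotated transcript, against 90.5% of shorter exons. Another 562 (26.3%) were partly coding, against 4.35%, and 148 (6.92%) were non-coding, against 5.16%. The non-coding label does not exclude overlap with coding sequence. The UBE2V1 exon of 338 bases carried it with 176 coding bases. Of the 148 exons, 141 matched an annotated exon exactly. Coding began inside 625 long exons (29.2%, 27.3 to 31.2%) and inside 6.96% of shorter exons. The end of coding lay inside 6.31% and 6.65%, with overlapping intervals (5.35 to 7.42% and 6.46 to 6.84%). In canonical transcripts, 523 of 1871 long exons (28.0%, 26.0 to 30.0%) were the second exon, against 10.1% of shorter exons. Counted once per exon, the canonical transcript had a median of 12 exons for long and 16 for shorter exons. A transcript with many listed exons counts many times in these medians, so that the sizes of the transcripts themselves were not compared.

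Second exons among the long group combined several of these features. A start of coding lay inside 68.6% of the 523, and 59.3% were partly coding, against 31.8% and 19.7% of second exons of at most 300 bases. Their median upstream distance was 5957 bases, against 4610 for the 6104 second exons of at most 300 bases. For exons that were neither second nor next to last, which was examined after seeing the data, the medians were 3123 bases for 1181 long and 2059.5 for 48922 shorter exons. The longer upstream introns were therefore present in both positions. EP300 and CREBBP, which encode related histone acetyltransferases, had second exons of 635 and 713 bases that were wholly coding, unlike most of the group, with upstream distances of 24088 and 28822 bases and the same 5'SS score of 12.55. These genes were picked from the chromatin list after their values were seen.

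Lengths that were multiples of 3, which keep the reading frame when an exon is skipped, made up 37.9% of long exons (35.9 to 40.0%) and 38.8% of shorter exons (38.5 to 39.2%). The shares were 40.9% (38.4 to 43.5%) and 39.5% (39.1 to 39.8%) for wholly coding exons. The intervals overlapped in both comparisons. With all exons over 250 bases counted as long, the order turned, with 40.2% (38.6 to 41.9%) against 38.7% (38.4 to 39.1%). At least 1 of the 3 sense frames was free of TAA, TAG and TGA in 76.8% of long exons (74.9 to 78.5%) and in 96.4% of shorter ones. A frame without stops is required of a wholly coding exon, and all 1430 had at least 1, including SPEN with its 8176 bases. Of these 1430, 1343 had exactly 1 such frame, 83 had 2 and 4 had all 3. Partly coding exons had a stop-free frame in 206 of 562 cases and non-coding exons in 7 of 148.

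Some long exons were also the unspliced form of a stretch that is spliced in other transcripts. An annotated intron lay wholly inside 156 of them (7.29%, 6.26 to 8.47%), against 0.15% of shorter exons, and the share was 11.4% over 1000 bases. An intron of the retained intron table lay inside 39 (1.82%), against 0.02%. SRRM2, ANK3 and the remodeller ATRX (3074 bases) each had 1 annotated intron inside their long exon. A long exon has more room for an intron, and this was not corrected for. Of all long exons, 92 (4.30%) were the longer form of an alternative 3'SS event and 85 (3.97%) of an alternative 5'SS event, against 1.52% and 0.72% of shorter exons. The classes did not separate at 300 bases for the 3'SS. Its share was 3.72% at 200 to 300 bases, 5.85% at 300 to 400 and 2.18% over 1000. For the 5'SS these classes had 1.98%, 4.28% and 3.27%.

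Another listed exon lay strictly inside 4 long exons (0.19%, 0.073 to 0.48%) and inside 9 shorter exons (0.014%, 0.0073 to 0.026%). The long ones were the exon of 572 bases in SLC35C2, a nucleotide sugar transporter family member, around one of 73 bases, and that of 396 bases in C3orf18 around one of 175. In RHNO1, which acts in the response to replication stress, 373 bases held 210, and in UBE2V1, a ubiquitin-conjugating enzyme variant, 338 held 140. Sharing a start or an end with a shorter listed exon was more common, at 8.50% of long exons (7.40 to 9.76%) against 2.34%. By class, the share was 5.92% (5.27 to 6.64%) at 200 to 300 bases, 10.1% at 300 to 400 and 5.72% over 1000. MSH6, a mismatch repair protein, had such a pair of 2545 and 2541 bases, whose 3'SS lie 4 bases apart and scored 11.02 and 3.76.

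In the chromatin list, 19 of the 27 genes listed (70.4%) had a long exon, against 15.2% of all 11945 genes. Of the 365 listed exons of these 27 genes, 7.40% (5.13 to 10.5%) were long, against 3.19% of all 67154. The number of listed exons per gene was not matched in the comparison of genes. The 3 TET genes, whose enzymes oxidise 5-methylcytosine, had similar exons near the start of the gene, namely exon 3 of TET2 with 3455 bases, exon 4 of TET1 with 2308 and exon 4 of TET3 with 2134. Each followed a long intron, of 43391, 43663 and 43111 bases respectively. ATRX and the histone methyltransferase NSD1 (2560 bases, exon 5 of 23) completed the 4 longest with TET2 and TET1. TET3 was named after its values were seen.

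Zinc finger genes, taken by the prefix of their symbol, had 79 long exons among 1222 (6.46%, 5.22 to 7.98%) in 64 of 410 genes (15.6%). The share of genes was near that of all genes, whereas the share of exons was about 2 times that of all exons. The 410 genes had 1222 listed exons and all 11945 genes had 67154, so that these shares rest on different numbers of exons per gene. The longest after ZNF646 were in ZNF521 (3353 bases), ZNF423 (3215) and ZNF142 (3037). In the centrosome and mitosis list, 8 of 19 genes had 12 long exons of 256 (4.69%, 2.70 to 8.01%). The longest were in ASPM (4755 bases), which acts at the spindle poles, NUMA1, the kinetochore protein CENPF (2844 bases, exon 13 of 20) and NIN, and all 12 were wholly coding. The DNA repair list had 8 long exons of 298 (2.68%, 1.37 to 5.21%) in 7 of 21 genes, led by MSH6, by the nuclease scaffold SLX4 (2309 bases), by MDC1 and by TP53BP1 (484 bases).

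Of 12 genes for RS-domain and splicing proteins, 4 had 5 long exons among 107 (4.67%, 2.01 to 10.5%). Besides SRRM2 and SON they were SCAF11, with 2718 and 347 bases, and ACIN1 with 325. The list of cytoskeletal giants had 8 of 134 (5.97%, 3.06 to 11.3%) in 6 of 12 genes. After the ankyrins came an exon of 3381 bases in PLEC, which encodes plectin, and that of DST, both with the skipping junction annotated. Both also had weak 5'SS, at the 4.16th and 8.43rd percentile. The lists were chosen with earlier results of these data known, and exon length chose the exons counted. The shares and intervals of the lists are therefore descriptive, and enrichment over the 3.19% of all exons was not tested. The lists hold genes known for large proteins, and protein size was not matched.

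The GC content of long exons had a median of 53.9% (quartiles 44.7 and 62.7%), against 48.7% for shorter exons. By length class it was 46.7% at 50 to 100 bases and 53.8% at 200 to 300, near the value of the long exons. It was 55.5% at 300 to 400 bases and 50.3% in exons over 1000 bases. Among the named exons it ran from 35.8% in ASPM to 74.7% in TNRC18. The purine-rich hexamer GAAGAA, which resembles known splicing enhancers, occurred 1.18 times per 1000 bases in long exons and 1.32 times in shorter ones. The classes did not separate at 300 bases, with 1.86 up to 50 bases, 1.07 at 200 to 300, 1.10 at 300 to 400 and 1.31 over 1000. GTAAGT, the intronic part of the 5'SS consensus, had 91 matches on the sense strand of long exons and 259 in shorter ones, or 0.057 and 0.033 per 1000 bases. Of the 91, 57 lay in the exons over 1000 bases (0.082 per 1000 bases), whereas exons of 300 to 400 and 400 to 500 bases had 0.033 and 0.024.

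The length of an exon also sets how rMATS weighs it. In every event the effective length of the inclusion form equalled the exon's length plus the 125 bases of the skipping form, so that the inclusion form is weighed over the body of the exon as well as its junctions. The share of the inclusion form that the exon itself makes up is therefore fixed by its length, which chose the exons, and is no separate finding. It went from 70.7% in the shortest long exons to 98.5% in SPEN, with a median of 80.0%. Where the counted reads lie was not analysed here.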

How the data were processed

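RNA-seq of 1 control and 1 amiloride library was processed by the authors, with STAR 2.5.1 and hg19/GRCh37 in the submitters' processing notes, and compared with rMATS, whose version and annotation are not given in the sources used here. The 5 deposited tables hold exon positions and effective lengths, which were used. Columns with reads or inclusion of a single library, 30 over the tables, carry a number in place of the condition and were not used. The authors' p-values, FDR and inclusion level differences, 15 columns, hold their comparison and were not used. No test was run, and depth is not reported.

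Exons were matched to GENCODE release 44 lifted to GRCh37 and to the GRCh37 sequence. AG and GT flanked 99.3% of long exons. Coordinates are 1-based. Matrices came from 299409 annotated 5'SS with GT and 298761 3'SS with AG (9 and 23 bases, pseudocount 0.5). Exons with 2 gene symbols, 92 in all, took the first in sorting order. Members and lists were chosen with earlier results of these data known. Named exons were the 10 longest (1 per gene), the longest of the 5 genes with most long exons (ties by symbol), the longest of up to 4 genes per list, and those containing other exons; others are marked. The sites of 1 named exon are not reported here. Alternatives were length thresholds of 250 and 500 bases, AG and GT only, exactly 1 event, no nested exon, the longest exon of each gene, farthest flanks, the table's own matrix and shared ends. Functions were tested on simulated data. Scripts ran in Python 3.11.15 with scipy 1.17.1, pandas 2.3.3, matplotlib 3.10.9 and numpy 2.4.6.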

Additional observations from a re-analysis of the deposited data

How the results depend on the processing

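Of 70 recomputed values, leaving out the body share, 50 stayed within the 95% interval of the main value (counts within 1.5 times) and 20 left it. No intron ratio or score difference changed direction. The share of multiples of 3 was below that of the other exons in the main setting (37.9 against 38.8%) and above it at over 250 bases (40.2 against 38.7%). At over 250 bases there were 3230 exons, with intron ratios of 1.42 upstream and 1.39 downstream, a 3'SS difference of 0.23, 80.1% with a stop-free frame, 71.0% wholly coding and a body share of 74.5%. At over 500 bases there were 1072, with ratios of 1.87 and 1.89, differences of 0.59 for the 5'SS and 0.88 for the 3'SS, and a body share of 86.5%. With the longest exon of each gene, the upstream ratio was 1.42, the 3'SS difference 0.83 and the body share 81.1%. Farthest flanks gave ratios of 1.47 and 1.40. Counting shared ends as nested raised the share from 0.19% to 8.55%. Of the alternatives chosen after seeing the data, the comparison within genes gave ratios of 1.38 and 1.44, and wholly coding exons a 3'SS difference of 0.24. The thresholds, the longest exon of each gene and wholly coding exons change which exons are compared. Counting shared ends keeps the long exons and changes what counts as nested. Beyond this construction, the cause of a change was not tested. The body share is a function of exon length and was set by each choice of exons.

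No paired analysis was possible because there was a single library of either kind and no library column was used. Depth bears on which exons can be listed, and it was not analysed here.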

Other observations

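Long exons were listed less often than short ones. Of the internal exons of canonical transcripts of genes in the table, 1758 of 4715 long exons (37.3%, 35.9 to 38.7%) were listed, against 57173 of 116974 shorter exons (48.9%, 48.6 to 49.2%). The change with length lay below 300 bases: 57.7% of exons of at most 50 bases were listed, 55.4% at 50 to 100, 46.4% at 100 to 200 and 37.9% at 200 to 300. Above that the share was 35.9% at 300 to 400 bases and 36.8% over 1000. The annotation used here need not be that of the tables, and listed exons of canonical transcripts whose gene symbol had no match in it (113 long and 3258 shorter) were not counted, nor were 21 shorter ones that were first or last exons. When listed, long exons had fewer events (a mean of 1.47 against 1.70 per exon). A larger share of these events had an annotated skipping junction (23.8%, 22.3 to 25.3%, against 17.8%, 17.6 to 18.0%). This share was 25.4% for exons of at most 50 bases and 19.4% for wholly coding long exons. Among second exons it was 28.7% for long and 27.2% for shorter ones, with overlapping intervals, and among exons neither second nor next to last 17.7% and 13.9%, with intervals that did not overlap.

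About 1 in 4 long exons held an internal sequence that matched the 5'SS consensus at least as well as the exon's own site. A window of 9 bases with GT in place scored at least as high as the exon's 5'SS in 547 long exons (25.6%, 23.8 to 27.5%) and in 9.02% of shorter exons. Per 1000 bases such windows were not more frequent, at 1.14 in long and 1.33 in shorter exons. Exons whose own site lacks GT were kept (AG and GT flanked 99.3% of long and 98.9% of shorter exons). A site without GT scores low, so that more windows of its exon count, and these exons were not set apart. The CENPF exon of 2844 bases holds the window aagGTgagt (GT in capitals), which scored 11.78 against 9.55 for its own 5'SS, aaaGTaagt. ZNF646 had 11 such windows in 5456 bases, DST 14 in 2730, and ANKRD11 none in 6578.

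The share of long exons by chromosome lay between 2.30% of 1216 exons on chromosome 13 (1.60 to 3.31%) and 4.08% of 2302 on chromosome 14 (3.35 to 4.97%). Chromosome 19, rich in zinc finger genes, had 3.52% of 3724 (2.97 to 4.16%).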
